A study of Mus musculus with 3 samples.

Results

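The chromatin of 9 genes known for their roles in haematopoietic stem cells (HSCs) was described: Mecom, Prdm16, Hlf, Meis1, Mllt3, Fgd5, Ctnnal1, Pdzk1ip1 and Hmga2. They were chosen by name as genes of stem cell identity, and are 9 of the 21910 protein-coding genes annotated on the assembled mouse chromosomes. For each gene, ATAC fragments were counted over the promoter (1 kb on each side of a start), over its open sites, and over the gene body plus 2 kb upstream. Only cells of the antibody table with 10 or more summed antibody tags were used.

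The cells were long-term HSCs (LT-HSCs) sorted from c-Kit-enriched bone marrow of wild-type C57BL/6J females, all 24 months old. The sort kept cells with Sca-1, c-Kit and CD150 and without lineage markers, CD48 or CD34. DOGMA-seq was used to read open chromatin, RNA and the tags of 12 antibodies in the same cells, in order to ask whether surface markers chosen in younger mice separate platelet-biased (PLT) from multilineage (MUL) HSCs at this age. All cells came from 1 pool with 1 library for each readout, so there were no biological replicates, no other age or treatment, and no test; intervals below are 95% intervals for counting error only. The RNA counts were not analysed here.

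The 9 genes code for proteins with different functions. Mecom and Prdm16 encode PR domain zinc finger proteins that HSCs need for their maintenance, and Hlf and Meis1 encode a PAR bZIP and a TALE homeodomain transcription factor. Mllt3 (AF9) is a subunit of the super elongation complex, Fgd5 encodes a guanine nucleotide exchange factor for Cdc42 and marks HSCs, Ctnnal1 encodes alpha-catulin, a relative of vinculin, and Pdzk1ip1 encodes MAP17, a small membrane protein whose gene lies next to Tal1. Hmga2 encodes an architectural chromatin protein of the fetal stem cell programme. In ATAC-seq a transposase cuts accessible DNA, so fragments accumulate at active promoters and at enhancers, most of which lie in introns or between genes.

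The fragment file held 43705382 fragments. The 3629 cells kept held 38498362 nuclear fragments, with a median of 10300 fragments per cell (range 3859 to 45151) and a median of 29 antibody tags. The 9 genes together held 65260 of these fragments, 0.170% of the total (0.168% to 0.171%). As a check of the label, the median level of 30 other stem cell genes was 1.85 FPKM (fragments per kb per 1000000 nuclear fragments; 27 above the median of all genes, 0.822), from 22.6 for Lyl1 to 0.165 for Tek. The megakaryocyte list had a median of 4.06 (7 of 8 above, from Itga2b at 6.82 to Ppbp at 0.293). Medians for the marker lists of erythroid (0.589), myeloid (0.347), B (0.514) and T cells (0.356) and for genes closed in blood (0.302) were below that of all genes, and endothelial and stromal markers were at 0.978. No listed gene was at 0. The highest and lowest genes were Klf1 (8.52) and Alas2 (0.0915) for erythroid, Prtn3 (4.92) and Ly6c2 (0.0447) for myeloid, Vpreb1 (3.65) and Ms4a1 (0.0574) for B cell, and Cd3d (5.40) and Cd8a (0.0503) for T cell markers. They were Col1a1 (2.18) and Lepr (0.0478) for endothelial and stromal markers, and Neurod1 (1.95) and Alb (0.0734) for genes closed in blood. These levels are per kb of window, and in short genes the promoter takes a larger part of the window. By promoter fragments at the outermost start of each gene, the megakaryocyte list had a median of 323, below the 382 of all genes, with 3 of 8 genes above. The share that rare cells of other types contributed was not tested.

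The strongest open site centred outside the promoters is shown for 7 of the genes (Ctnnal1 had none, and that of Fgd5 overlapped an exon). Each line gives the 200 bases with the most cut sites inside the 500-base site, in mm10, plus strand, in lower case. Capitals mark matches on either strand to the motifs searched that occurred in them, AGGAAG (ETS) and CAGCTG (E-box), or their reverse complements. The Mecom site (chr3:30508415-30508614) lay in an intron, with the centre of its 500 bases 1133 bases inside the most accessible coding start. The sites of Prdm16 (chr4:154497088-154497287), Hlf (chr11:90382111-90382310), Mllt3 (chr4:87823296-87823495), Pdzk1ip1 (chr4:115091661-115091860) and Hmga2 (chr10:120461854-120462053) were also intronic, and that of Meis1 (chr11:19020391-19020590) lay upstream, centred at -1595 bases from its start. Positions of sites are those of the centre of the 500 bases throughout.
Mecom: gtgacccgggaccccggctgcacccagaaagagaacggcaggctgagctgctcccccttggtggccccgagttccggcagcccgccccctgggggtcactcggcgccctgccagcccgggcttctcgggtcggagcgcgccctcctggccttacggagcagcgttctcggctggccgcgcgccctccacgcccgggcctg
Prdm16: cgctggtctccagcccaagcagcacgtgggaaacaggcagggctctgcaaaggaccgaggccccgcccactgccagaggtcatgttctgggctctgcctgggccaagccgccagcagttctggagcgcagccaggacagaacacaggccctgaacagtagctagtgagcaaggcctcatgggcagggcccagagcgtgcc
Hlf: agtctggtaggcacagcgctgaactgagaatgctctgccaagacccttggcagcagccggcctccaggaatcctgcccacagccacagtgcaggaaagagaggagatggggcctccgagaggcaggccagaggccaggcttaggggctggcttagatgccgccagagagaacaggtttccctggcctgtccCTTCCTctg
Meis1: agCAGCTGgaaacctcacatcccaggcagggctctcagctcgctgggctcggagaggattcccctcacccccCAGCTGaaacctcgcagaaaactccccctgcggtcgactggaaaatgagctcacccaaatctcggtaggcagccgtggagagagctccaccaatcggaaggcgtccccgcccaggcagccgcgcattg
Mllt3: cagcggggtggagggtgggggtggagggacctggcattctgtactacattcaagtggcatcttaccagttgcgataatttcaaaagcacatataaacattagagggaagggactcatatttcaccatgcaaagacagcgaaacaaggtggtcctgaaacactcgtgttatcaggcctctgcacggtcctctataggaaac
Pdzk1ip1: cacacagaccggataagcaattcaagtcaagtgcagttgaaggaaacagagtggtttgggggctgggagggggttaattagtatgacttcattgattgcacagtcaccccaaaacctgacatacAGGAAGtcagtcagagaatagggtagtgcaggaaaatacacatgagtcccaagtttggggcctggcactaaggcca
Hmga2: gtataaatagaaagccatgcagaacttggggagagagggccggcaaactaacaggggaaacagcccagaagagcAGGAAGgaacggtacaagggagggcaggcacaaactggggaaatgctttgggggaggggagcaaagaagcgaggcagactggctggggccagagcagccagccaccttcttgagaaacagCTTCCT
The Meis1 upstream sequence held CAGCTG at 2 positions, and the Hmga2 sequence held the ETS letters at 2 positions. Neither Mecom, Prdm16 nor Mllt3 had a match in its window, which says only that these letters are not in it.

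Over the gene body, these stem cell genes were mostly long and, among genes of all lengths, ordinary in density. Their places below were not matched for length. Windows ran from 7.19 kb for Pdzk1ip1 to 599 kb for Mecom, and a promoter takes a larger part of a short window. The median of the 9 was 1.13 FPKM, with 6 of 9 above the median of all protein-coding genes, and the middle 50% of all genes ran from 0.171 to 2.07. The levels, in order, were 3.76 for Pdzk1ip1 (3.53 to 3.99), 2.54 for Hlf (2.47 to 2.61), 1.68 for Meis1 (1.64 to 1.71), 1.19 for Prdm16 (1.17 to 1.21), 1.13 for Ctnnal1 (1.09 to 1.18), 0.887 for Hmga2 (0.860 to 0.915), 0.781 for Mecom (0.770 to 0.793), 0.761 for Mllt3 (0.744 to 0.778) and 0.660 for Fgd5 (0.635 to 0.687). The intervals of Prdm16 and Ctnnal1 overlapped, as did those of Mecom and Mllt3, and no other neighbours in this order overlapped. Pdzk1ip1 was above 88.0% of all genes and Hlf above 79.9%, whereas Fgd5 was above 44.7%.

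At promoters the median gene of the set stood higher, above 76.1% of all genes against 58.8% over the gene body, but Mecom (25.6% against 48.7%), Hlf (78.4% against 79.9%) and Pdzk1ip1 (60.1% against 88.0%) stood lower. In the plot of levels, the promoters of 8 of 9 genes were open in more cells than that of the median gene, 9.26% of cells. Ctnnal1 had a promoter fragment in 37.6% of cells (36.0% to 39.2%), Mllt3 in 35.7% (34.1% to 37.2%) and Prdm16 in 34.3% (32.8% to 35.9%). Hlf (27.5%, 26.1% to 29.0%) and Meis1 (26.0%, 24.6% to 27.5%) followed. Hmga2 (15.4%, 14.3% to 16.6%), Pdzk1ip1 (15.0%, 13.9% to 16.3%) and Fgd5 (10.8%, 9.84% to 11.9%) were lower, and Mecom was lowest at its outermost start (0.413%, described below). Among the other 8 genes, adjacent intervals overlapped within each of these 3 sets except between Fgd5 and Pdzk1ip1. A cell holds few fragments per promoter, so a cell with none cannot be called closed. In fragments at the outermost start, the median promoter count of the 9 genes was 1190, against 382 for all genes and 606 for the 30 other stem cell genes. Other starts were not counted for the genes of the lists, so these medians do not rank the promoters in use. Vwf, for example, had 41 fragments at that start of 8342 over its gene body. The marker lists had medians of 391 (endothelial and stromal), 323 (megakaryocyte), 161 (erythroid), 91 (closed in blood), 87.5 (B cell), 26 (T cell) and 15.5 (myeloid). The lists of relatives described below ran from 514 (Hmga1 and fetal stem cell genes) to 1842 (elongation complexes).

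**Figure D1:**
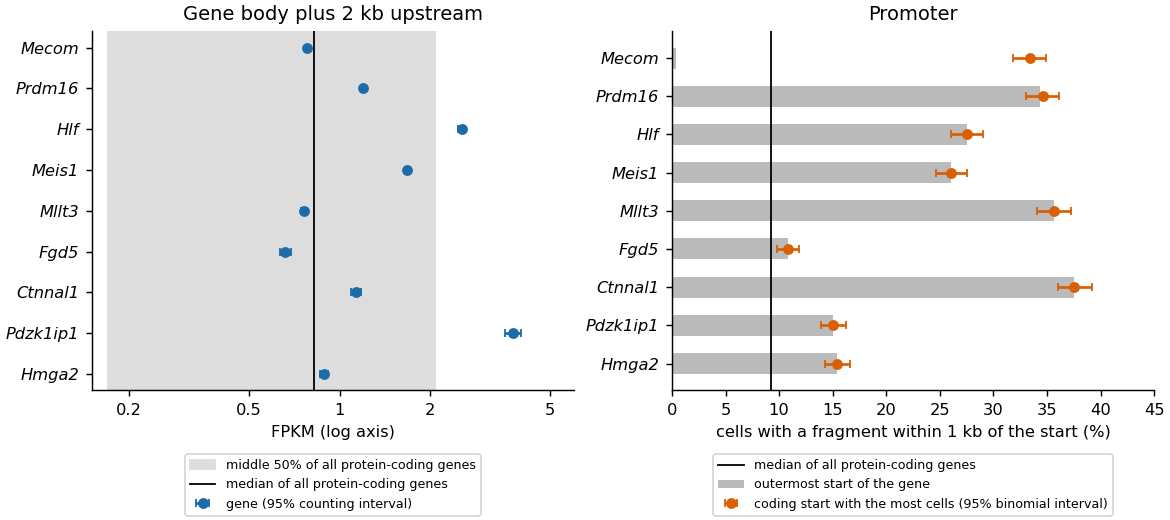
Left, FPKM over the gene body plus 2 kb upstream (log axis) for each of the 9 genes with 95% Poisson intervals, beside the median and middle 50% of all protein-coding genes. Right, percent of the 3629 cells with a fragment within 1 kb of the outermost start (bars) and of the coding start with the most cells (points, 95% binomial intervals). The line there, the median of all protein-coding genes, is at outermost starts and so compares with the bars only. The Mecom bar is near 0 while its point is at 33.4%.

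Mecom, which encodes EVI1 and the longer MDS1-EVI1 protein (ENSMUSG00000027684.16, chr3:29951296-30548008, minus strand), held the most fragments of the 9 genes, 18012, with at least 1 in 97.7% of cells (97.1% to 98.1%). Its outermost annotated start was nearly closed. Only 19 fragments lay within 1 kb of it, in 0.413% of cells (0.232% to 0.681%). The most upstream annotated coding start, that of transcript Mecom-212 with 1051 codons, lies 38275 bases further in, at chr3:30509733. It held 1644 fragments, in 33.4% of cells (31.8% to 34.9%), an interval that overlapped that of the Prdm16 promoter. The start shared by Mecom-202 and Mecom-206, 534503 bases from the outermost start, was covered in 7.25% of cells (6.42% to 8.14%). The other coding starts were at 0.441% (Mecom-201), 0.827% (Mecom-203) and 1.82% (Mecom-204). So a promoter defined by the edge of the gene model missed the accessible start of this gene.

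**Figure D2:**
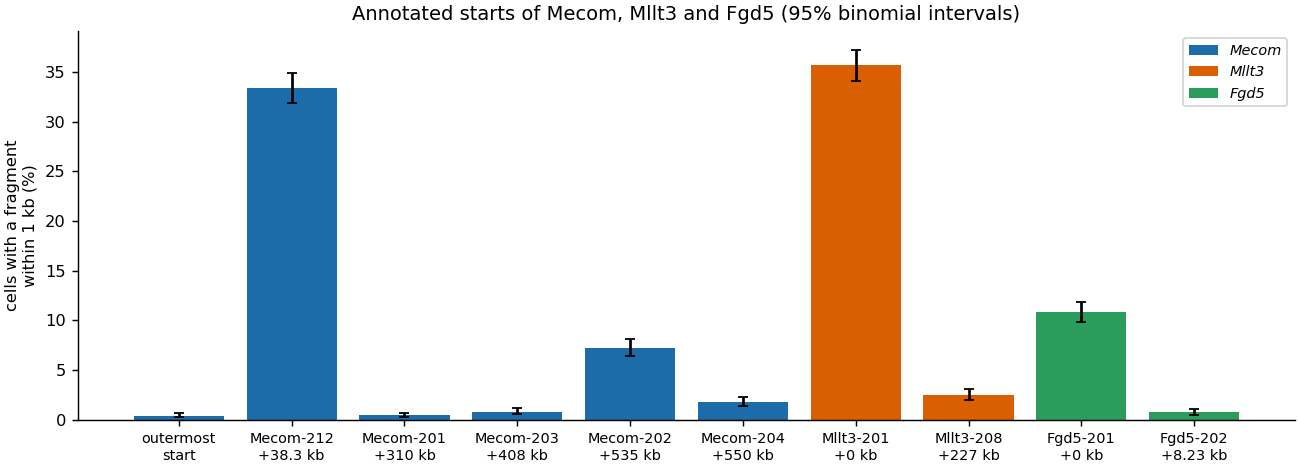
Percent of cells with a fragment within 1 kb of each annotated start of Mecom, Mllt3 and Fgd5, with 95% binomial intervals and the distance of each start from the outermost start of its gene. In each gene 1 start stands above the others.

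The same comparison for the other genes with separate coding starts gave 1 open start each. The full-length start of Mllt3 (569 codons) was covered in 35.7% of cells. The internal start, 227041 bases downstream, from which the annotation has transcripts of 162 codons or fewer, was covered in 2.51% (2.02% to 3.07%). The Fgd5 start of 1514 codons was covered in 10.8% of cells, and that of the 1356-codon transcript, 8232 bases downstream, in 0.744% (0.491% to 1.1%). The other 6 genes had a single group of coding starts among the coding transcripts of the GENCODE basic set, which leaves out incomplete ones such as Hlf-206. ATAC fragments have no strand, so promoter fragments of Mllt3 and Prdm16 cannot be told apart from those of the antisense genes Gm12631 and Gm13111, which start at -137 and -703 bases from them; the Prdm16 window also holds the coding gene B230104I21Rik. Fragments within 1 kb of those starts differed in length: fragments under 150 bases, a length typical of DNA free of nucleosomes, made up 54.0% at Ctnnal1 and 52.4% at Hlf, against 18.6% at Hmga2, 25.1% at Fgd5 and 26.5% at the open Mecom start.

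Open sites were 500-base windows with at least 10 times as many cut sites as the genome mean. There were 152 in the 9 genes, of 84448 in the genome: 105 in introns, 28 at promoters, 12 overlapping exons and 7 upstream. Windows do not overlap, but adjoining ones were not merged, so 1 open stretch can count as more than 1 site. The 4 sites of Ctnnal1, for example, adjoin each other. Some windows beside strong sites were below the mean of the surrounding 20 kb, such as an intronic Mecom site at 0.642 times that mean. Prdm16 held 41, Mecom 39, Meis1 20, Hlf 14, Hmga2 13, Mllt3 12, Fgd5 5, and Ctnnal1 and Pdzk1ip1 4 each. Among the 2546 genes with windows of 100 kb or more, the median was 2.92 sites per 100 kb. Meis1 had 14.2 (more than 97.5% of these genes), Prdm16 12.7 (96.9%), Hmga2 11.1 (95.4%), Mecom 6.51 (82.9%) and Mllt3 4.52 (65.6%). The rates of the 9 genes count sites that overlap the window, whereas the median and the percentages count sites centred in it. Meis1 and Mllt3 each have an upstream site centred beyond the window, so their percentages belong to slightly lower rates.

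**Figure D3:**
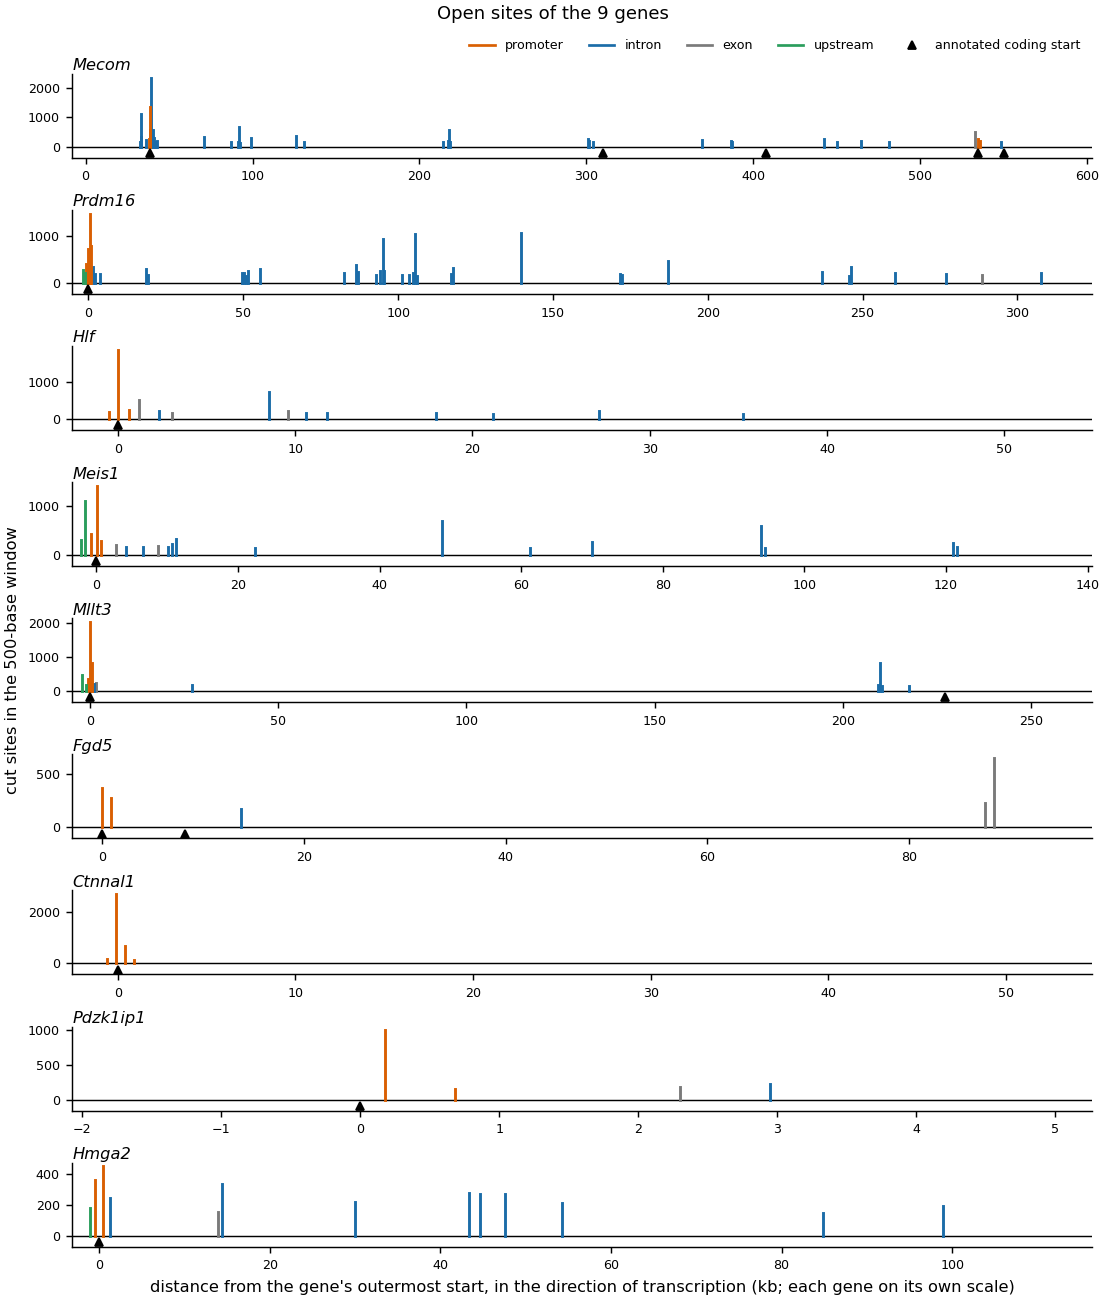
Cut sites in each 500-base open site of the 9 genes against distance in kb from the outermost start in the direction of transcription, coloured by annotation, with triangles at annotated coding starts; each gene has its own axes. The highest Mecom sites lie near the coding start 38275 bases in, Prdm16 has 3 intronic sites that stand above its other intronic sites, and all Ctnnal1 sites are at its promoter.

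The genes differed in where this signal lay. In Ctnnal1, 75.5% of all cut sites in the window fell in its promoter sites and there was no open site elsewhere in the gene. In Prdm16, 34.5% of cut sites fell in intronic sites against 11.5% in promoter sites, and in Mecom 31.6% against 7.21%. The Mecom split depends on its strongest site, of 2343 cut sites. That site counts as intronic because its centre lies 1133 bases from the open coding start, though it overlaps the promoter window. Hmga2 had 27.3% in intronic and 10.2% in promoter sites. Hlf was nearly even, with 18.2% and 21.1%, and Mllt3 had more at its promoter (20.8%) than in introns (11.0%).

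The strongest site outside promoters was that of Mecom, with 2343 cut sites, covered in 31.5% of cells. It ranked 2840 of all sites of the genome by cut sites. A further Mecom site, at -5387 bases from the open coding start, held 1114 cut sites in 16.1% of cells. The intronic sites of the 9 genes had a median of 206 cut sites. The sites of the genome over 1 kb from the outermost start of any protein-coding gene had a median of 254. That set also holds intergenic and exonic sites and promoters at internal starts, so it is not matched to the intronic sites. Of the 105 intronic sites, 7 (6.67%) were above the 715 cut sites that 10% of that set passed. Prdm16 held 3 intronic sites above it, 94973, 105433 and 139583 bases into the gene, with 946, 1048 and 1066 cut sites and covered in 14.3%, 15.2% and 14.7% of cells. Next to its promoter (1410 cut sites), Meis1 had the upstream site shown above (1101 cut sites, 16.6% of cells) and an intronic site 48815 bases in (703 cut sites, 10.6%). In Mllt3 an intronic site 209824 bases from the start, at -17217 bases from the internal start, held 844 cut sites in 12.4% of cells. In Hlf the strongest intronic site lay 8535 bases in (745 cut sites, 11.0%). In Fgd5 the strongest site of the gene was not at its promoter. It overlapped coding exon 15 of 21 of Fgd5-201, 88472 bases in, with 653 cut sites in 9.78% of cells. The strongest intronic site of Hmga2 held 338 cut sites in 6.01% of cells.

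Pdzk1ip1 (chr4:115088708-115093899) is the shortest of the genes and lies downstream of Tal1, which encodes a bHLH factor essential for HSCs. Its promoter site held 1002 cut sites and its intronic site 228. A stronger site lay just beyond the gene, 7232 bases from its start and 39514 bases from that of Tal1, with 3225 cut sites, above the Tal1 promoter site itself (2421). This site was outside the window counted for Pdzk1ip1. Of the neighbours, Tal1 had the highest level (4.66) and Cyp4x1 the lowest (0.459).

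Among the 105 intronic sites, 31.4% held AGGAAG (ETS), counting both strands of the 200 bases with the most cut sites in each site. The share was 36.1% for the 54801 sites of the genome over 1 kb from the outermost start of any protein-coding gene. That set also holds intergenic and exonic sites and promoters at internal starts. The RUNX letters TGTGGT were in 15.2% of the intronic sites and 20.8% of those of the genome. The E-box CAGCTG was in 8.57% and 14.2%. The MEIS letters TGACAG were in 8.57% and 12.8%. The GATA letters AGATAA were in 6.67% and 7.64%. The AP-1 letters TGANTCA, whose N is any base, were in 4.76% and 9.67%. The HLF letters TTACGTA were in 0 of 105, which allows a share of up to 2.86% by a limit of 3 counts (3.45% by the binomial interval), and in 0.338%. In each case the share of the genome lay within the 95% binomial interval of the share in the 9 genes. In Meis1 itself, 5 of 13 intronic sites held TGACAG and 4 of 13 held AGATAA. The Meis1 counts were singled out after they were seen, and these are matches of letters, not binding sites.

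Relatives of the 9 genes gave a setting for these levels. PR domain genes had a median of 1.43 (11 of 13 above the median of all genes), and Prdm8 was highest at 2.46. TALE genes and Hoxa9 had a median of 1.46, from 6.59 for Hoxa9 to 0.270 for Pknox2, and Meis2 was at 0.389 against 1.68 for Meis1. The 2 PAR bZIP relatives and Nfil3 were at 3.58 (Nfil3) to 22.5 (Dbp), all above Hlf. Elongation complex genes had a median of 1.5, from Cdk9 at 11.7 to Aff3 at 0.540. FGD genes and Cdc42 had a median of 1.07, from Cdc42 at 2.35 to Fgd4 at 0.371. Vinculin and the alpha-catenins had a median of 0.272, from Vcl at 1.11 to Ctnna2 at 0.0506. The windows of Ctnna2 and Ctnna3 are 1100 and 1576 kb, against 56.3 kb for Ctnnal1. By promoter fragments Ctnna3 (2410) and Vcl (2378) were above Ctnnal1 (1883), and Ctnna1 (1067) and Ctnna2 (192) below it. In the list of Hmga1 and fetal stem cell genes, Hmga1 was highest (13.9) and Lin28b, the fetal RNA-binding protein, lowest (0.243).

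From cell to cell, the 9 genes together had a median of 17 fragments per cell (quartiles 13 and 22, range 0 to 61). A promoter fragment was seen for 2 of the genes in 1115 cells, for none in 389 and for 7, the most, in 2. The variance of fragments across cells, divided by that from counting at each cell's depth, had a median of 1.16 over the 16089 genes with at least 200 fragments. It was 1.35 for Mecom (above 99.1% of those genes), 1.34 for Meis1 (98.9%) and 1.31 for Hlf (98.2%), and from 1.19 (Fgd5) to 1.24 (Prdm16) for the others. This ratio grows with the number of fragments: among the 768 genes with at least 5000 fragments the median was 1.21. Mecom was above 97.9%, Meis1 97.1%, Hlf 94.8%, Prdm16 75.9% and Mllt3 67.1% of them. Because variation over cells exceeds counting, the counting intervals are too narrow for differences between groups of cells. Correlations of depth-scaled fragments across the 3629 cells for the 36 gene pairs ran from -0.027 to 0.039 and are no finding in counts this sparse.

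CD201 (EPCR, encoded by Procr) is the antigen of the panel that is best known as an HSC marker. CD201 tags were found on 1119 cells (30.8%), with a mean of 0.414 per cell and a highest count of 6. The paper states that antibodies with strong staining were diluted with unconjugated antibody to balance the tags. With so few tags, a cell without one cannot be called negative for CD201. The 9 genes summed had 1706 CPM (fragments per 1000000 nuclear fragments) in cells with a CD201 tag and 1690 in cells with none, a log2 ratio of 0.01 (-0.01 to 0.04). In cells with 0, 1, and 2 to 6 CD201 tags the summed levels were 1690, 1710 and 1694 CPM, with overlapping intervals. Single genes ran from a log2 ratio of -0.07 for Hlf (-0.16 to 0.01) to 0.09 for Pdzk1ip1 (-0.10 to 0.28). None of the 9 passed the fold used throughout, a log2 ratio of 0.32 in either direction, which 1.35% of 16089 genes did. The promoter sites gave 0.04 (-0.01 to 0.10) and the intronic sites 0.00 (-0.04 to 0.05). Procr itself had 11.5 and 11.9 CPM, a log2 ratio of -0.05 (-0.36 to 0.24). No difference in these genes by CD201 tags was detectable at this depth. Cells with and without a tag had median depths of 10150 and 10358 fragments.

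Over all 12 antibodies, cells with the most tags were compared with cells with the fewest, or cells with a tag with cells without for the 8 antibodies found on fewer than 50% of cells. For the other 4 the groups were set at the quartiles of tags, and because many cells tie, the low groups held 727 (CD61), 877 (CD274), 1200 (CD357) and 1578 cells (CD27) and the high groups 779 to 968. Of the 108 pairs of gene and antibody, 2 passed this fold, or 1.85%, against 7.39% of the 188660 pairs of all genes with at least 200 fragments. These shares are not matched for counts: few fragments pass a fixed fold more easily, and the 9 genes held 1040 to 18012 each. Of the 13947 pairs of all genes past the fold, 4629 were of CD163 and 4107 of CD206. Whether the 9 genes vary less than genes of like counts was not tested. The log2 ratios of the 108 pairs ran from -0.23 to 0.57 and 59 were above 0. Both pairs past the fold were of Pdzk1ip1, the member with the fewest fragments: with CD274 (log2 ratio 0.43, 0.17 to 0.70) and with CD163 (0.57, -0.04 to 1.08). CD163 tags were on only 71 cells, in which Pdzk1ip1 had 29 fragments, and 28.8% of genes passed the fold in that split.

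**Figure D4:**
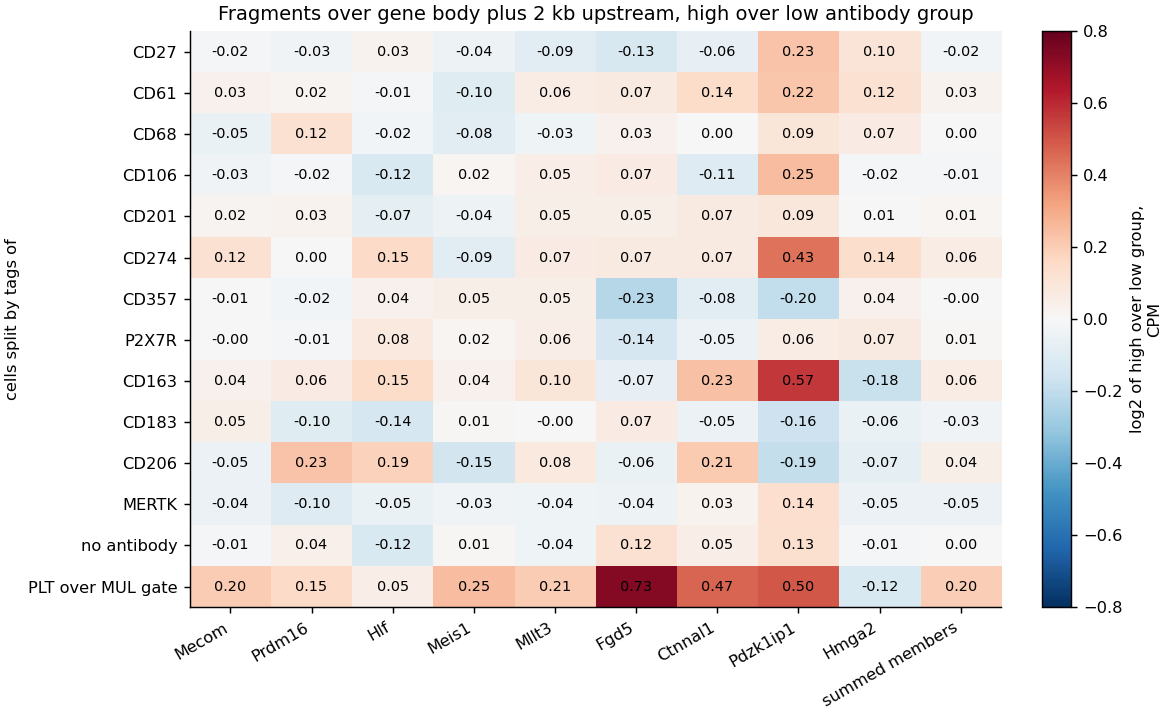
Log2 ratios of CPM over the gene body plus 2 kb upstream, high over low group, for the 9 genes and their sum (columns) and each antibody, the tags that matched no antibody, and the PLT over MUL gate (rows). Most cells of the grid lie near 0, and the gate row reaches 0.73 for Fgd5.

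CD274 (PD-L1) had the most tags, with a median of 19 per cell. Between cells with 27 or more CD274 tags (937 cells) and those with 12 or fewer (877 cells), Pdzk1ip1 had 28.4 against 21.1 CPM. In this split 4.25% of 14875 genes passed the fold. Its promoter sites differed more, with 17.4 against 11.2 (log2 ratio 0.63, 0.28 to 0.99). The Fgd5 intronic sites were at 1.30 (0.50 to 2.22), on 47 and 17 fragments. By CD274 class, Pdzk1ip1 was at 20.5 CPM (17.4 to 23.9) in cells with 0 to 11 tags and between 28.1 and 29.2 in the 4 higher classes, so only the lowest class stood apart. Mecom ran from 451 CPM in the lowest class through 455, 461 and 484 to 491 in the highest, with intervals that did not overlap between the ends (436 to 466 and 475 to 507). Its log2 ratio of 0.12 (0.06 to 0.18) was below the fold, as were Hlf (0.15, 0.04 to 0.26), Hmga2 (0.14, 0.01 to 0.26) and Meis1 on the other side of 0 (-0.09, -0.17 to -0.01). The sum of the 9 genes gave 0.06 (0.03 to 0.09), with 0.14 (0.06 to 0.21) at promoter sites and 0.09 (0.04 to 0.15) at intronic sites. At promoter sites Mecom was at 0.01 (-0.19 to 0.21) and Hlf at 0.17 (-0.06 to 0.41). Hmga2 was there at -0.22 (-0.56 to 0.12) and Meis1 at 0.13 (-0.10 to 0.36). At intronic sites Mecom was at 0.09 (-0.01 to 0.19) and Hlf at -0.03 (-0.26 to 0.19). Hmga2 was there at 0.27 (0.06 to 0.48) and Meis1 at 0.08 (-0.09 to 0.25). For MERTK, split into 1461 cells with a tag and 2168 without, the gene body sum was at -0.05 (-0.07 to -0.03). For the other 10 antibodies the interval of the gene body sum included 0. CD274 made up most tags, so the high and low groups also differed in total tags (medians of 46 and 17). The same split by tags that matched no antibody (medians of 36 and 24 tags) gave 0.00 for the sum and 0.13 for Pdzk1ip1, but -0.12 (-0.23 to -0.01) for Hlf, a ratio about as large as those of Hlf and Mecom by CD274. In the 363 cells with at least 50 tags, the CD274 ratio was -0.17 (-0.93 to 0.59) for Pdzk1ip1, -0.10 (-0.42 to 0.22) for Hlf, 0.02 (-0.34 to 0.38) for Hmga2, 0.17 (-0.01 to 0.34) for Mecom and 0.02 (-0.07 to 0.11) for the sum. High and low groups were set anew within these cells.

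**Figure D5:**
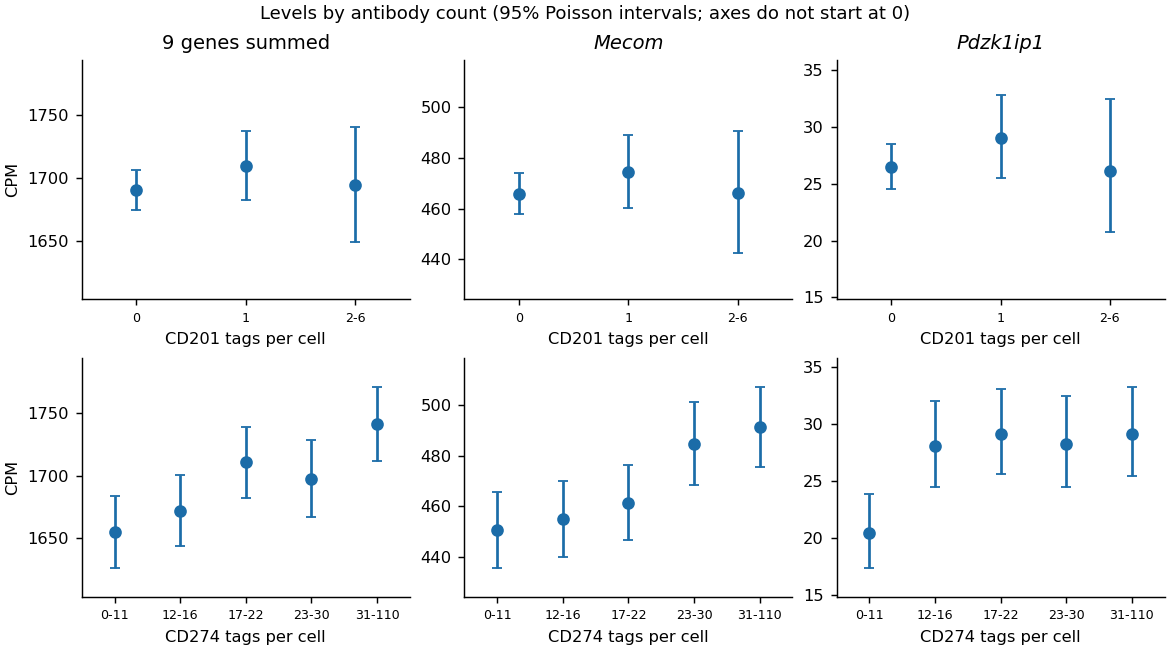
CPM with 95% Poisson intervals for the 9 genes summed, Mecom and Pdzk1ip1, by CD201 (top) and CD274 (bottom) tags per cell; the axes do not start at 0. Levels by CD201 overlap, Mecom is higher in the upper CD274 classes, and Pdzk1ip1 is lower in the lowest CD274 class.

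For the remaining antibodies, gene body ratios were below the fold other than for CD163. In all, 17 of the 108 gene body ratios (15.7%) had a counting interval that left out 0, against 7.56% of the pairs of all genes, but these intervals narrow with the number of fragments and the 9 genes are mostly long. Fgd5 had a log2 ratio of -0.23 (-0.38 to -0.08) for CD357 (GITR), and one of -0.14 (-0.26 to -0.02) for P2X7R. Prdm16 was at -0.10 (-0.15 to -0.06) for MERTK and -0.10 (-0.20 to -0.00) for CD183, but at 0.23 (0.07 to 0.37) for CD206, found on 82 cells, and 0.12 (0.03 to 0.20) for CD68. Hlf was at -0.12 (-0.21 to -0.03) for CD106, Meis1 at -0.10 (-0.19 to -0.01) for CD61, Mllt3 at -0.09 (-0.18 to -0.01) for CD27 and Mecom at -0.04 (-0.09 to -0.00) for MERTK. Pdzk1ip1 was at 0.25 (0.05 to 0.44) for CD106 and 0.23 (0.01 to 0.45) for CD27. In the CD357 split, promoter sites of Mllt3 were at 0.31 (0.13 to 0.49), while its gene body was at 0.05, and Hlf had 0.22 (0.01 to 0.43) at its promoter sites and -0.29 (-0.50 to -0.08) at its intronic sites. Over promoter and intronic sites, 204 ratios of gene and antibody were computed, of which 22 passed the fold and 5 of these had an interval that left out 0; no share over the sites of all genes was computed, so these are given as values. Beside those by CD274 they were 0.76 (0.28 to 1.24) for MERTK and 1.38 (0.06 to 2.31, on 8 fragments in the high group) for CD206 at the Pdzk1ip1 intronic site, and -0.33 (-0.64 to -0.05) for CD68 at the Mecom promoter sites. The pattern of the summed genes over the 12 antibodies was most like those of Fhad1 (Pearson r = 0.891), Cerk (0.865) and Ttc28 (0.863), among 11141 genes with at least 1000 fragments. All come from the same cells and depth. These are the highest of 11141 correlations over 12 values, and how high such a search reaches without any relation was not tested.

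Cells were also gated by the proposed surface phenotypes. The PLT gate (above the median of CD61 and CD274, at or below that of CD357 and CD27) held 342 cells and the MUL gate (the opposite) 61. These sizes depend on the setting: they were 251 and 252 cells on the centred log ratio of tags, 247 and 89 without cells with excess overlaps, and 64 and 19 with gates at tertiles. Medians were taken anew in each set of cells, so the cutoffs could shift. The larger MUL gate after cells were left out comes from shifted cutoffs, and ratios under such settings belong to differently defined gates. The 9 genes summed had 1723 CPM in the PLT gate and 1501 in the MUL gate, a log2 ratio of 0.20 (0.10 to 0.30), where the median of all genes was -0.00. The intronic sites gave 0.25 (0.07 to 0.45) and the promoter sites 0.04 (-0.19 to 0.29). Hlf went both ways, with 1.22 (0.37 to 2.38) at its intronic sites, on 144 and 10 fragments, and -0.64 (-1.21 to 0.01) at its promoter sites. Of the 9 genes, 8 were above 0 and Hmga2 was at -0.12 (-0.48 to 0.28). Fgd5 had the highest ratio, with 73.1 against 43.3 CPM (0.73, 0.17 to 1.40), from 259 and 26 fragments. Ctnnal1 was at 0.47 (-0.07 to 1.10) and Pdzk1ip1 at 0.50 (-0.29 to 1.5), the latter on 125 fragments in all. Past the fold were 2 of the 8 genes with at least 200 fragments, Fgd5 and Ctnnal1, against 20% of 6485 genes, so their share is near the background. Mecom (470 against 408 CPM) was at 0.20 (0.01 to 0.40), and Meis1 at 0.25 (-0.03 to 0.55). The gates differed in total tags (medians of 37 and 26), whose part in these ratios was not tested, and under other settings the summed ratio ran from -0.00 (at least 50 tags per cell) to 0.27 (gates at tertiles). With at least 50 tags Fgd5 was at -0.08. With no minimum of tags Fgd5 was at 0.33 (-0.11 to 0.82), Mecom at 0.13 (-0.04 to 0.30) and Meis1 at -0.07 (-0.30 to 0.17), and on the centred log ratio Ctnnal1 was at 0.11 (-0.20 to 0.43) and Meis1 at -0.14 (-0.30 to 0.02).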

How the data were processed

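ATAC, gene expression and antibody libraries were made from 1 pool of cells. Per the file headers and labels, the authors processed ATAC and RNA with Cell Ranger ARC 2.0.2 and mm10; the deposited fragment file has 1 line per fragment after removal of duplicates, with ends shifted to the cut positions. All deposited values are raw counts (read pairs per fragment, fragments and UMIs per barcode, antibody tags per cell), and none was normalized. The authors counted tags with CITE-seq-Count (version not given in the sources used here). Every column of values was matched to its library.

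Called cells in the antibody table with 10 or more tags were kept; doublets were not removed. Genes were those of GENCODE M21, and sequences came from GRCm38.p6, whose chromosomes have the lengths of mm10. Fragments were counted per gene body plus 2 kb upstream and per promoter, per 1000000 nuclear fragments. Open sites were 500-base windows with 10 times the genome mean of cut sites. Ratios had 0.5 added to each count. Intervals were exact Poisson, binomial (Clopper-Pearson) or conditional binomial at 95% (scipy 1.17.1, numpy 2.4.6, pandas 2.3.3, Python 3.11.15; plots with matplotlib 3.10.9), checked on simulated data. Comparisons between cells of 1 sample had no test. Duplicate-collapsed fragments are close to independent molecules, but cells of 1 pool are not replicates.

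The genes and lists were chosen with earlier results of these data known. Named were the 9 genes, their coding starts, the strongest site of each outside promoters, the extremes of each list (1 is not reported here), and the 3 genes most like the sum over the antibodies; other sites named were chosen after their values were seen. Alternatives varied the tag minimum, overlaps, depth, scaling, windows, site threshold and antibody scale.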

Additional observations from a re-analysis of the deposited data

Results flagged for a closer look

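Barcodes that entered no comparison also held fragments over the 9 genes. Whether these were more than even scatter over the genome would give was not tested for these genes. The 645 called cells without antibody counts held 2118 fragments over them, 0.165% of their 1282313 nuclear fragments (0.158% to 0.172%), an interval that overlaps the 0.168% to 0.171% of the cells kept. Barcodes not called as cells held 4158 such fragments, 0.149% of 2794021 (0.144% to 0.153%), below the share in the cells kept. Mecom, for example, was at 0.695 FPKM in those barcodes, 0.770 in called cells without antibody counts and 0.781 in the cells kept.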

How the results depend on the processing

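Values under the alternatives were set against the counting interval of the main value, or, for counts, against 1.5 times the main count. The median gene of the 9 was above 58.8% of all genes and this moved only with promoters in place of gene bodies, to 76.1. Scaling by promoter fragments could not move it, because a place among genes does not depend on a common scale. Bases of overlapping genes were left out for the 9 genes only, not for the genes they were ranked against. The median promoter share of 26.0% moved to 29.8% with at least 50 tags (363 cells), to 15.1% with 250 bases on each side and to 16.5% after thinning every cell to 6000 fragments (244 shallower cells dropped). With the coding start with the most cells for each gene, an alternative chosen after seeing the data, it was 27.5%. The number of open sites moved from 152 to 340 at 5 times the mean, 50 at 20 times, 248 with windows of 300 bases and 89 with 3 times the surrounding 20 kb also required. The CD201 ratio (log2) of 0.013 moved only with promoters alone, to 0.0633, and was -0.01 when scaled by promoter fragments. The PLT over MUL ratio of 0.20 moved to -0.00228 with at least 50 tags (22 and 25 cells) and to 0.0349 with promoters alone, and was 0.13 with no minimum of tags, 0.14 without cells with excess overlaps and 0.10 on the centred log ratio. Gate cutoffs and antibody groups were set anew in each set of cells, so a change between sets is not due to the cells alone. The 2 antibody pairs past the fold became 22 of 108 (20.4%) with at least 50 tags, where 23.4% of the pairs of all genes with at least 200 fragments passed it, 16 (14.8%, against 10.5%) with promoters alone, 3 (2.78%) without cells with excess overlaps (against 8.34%) and on the centred log ratio (against 2.40%), 4 (3.70%, against 8.18%) without the deepest 5% of cells and 0 (against 1.65%) past a fold of 1.5. Among pairs with at least 200 fragments it was 15 of 85 (17.6%) with at least 50 tags and 8 of 96 (8.33%) with promoters alone. With at least 50 tags, 3 ratios past the fold changed sign: Fgd5 (-0.0779) and Pdzk1ip1 (-0.64) in the gates, and Pdzk1ip1 with CD274 (-0.17). Fewer cells enter with 50 tags, and fewer fragments with promoters alone; the cause was not tested. Of the other values for single genes or antibodies, 583 stayed inside the limit and 138 moved. No paired analysis was possible because there is 1 sample. Leaving out cells with an excess of overlapping fragments removed 264 cells (7.27%). Counts limit the precision of the gate ratios, with 901 fragments of the 9 genes in the 61 cells of the MUL gate.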
